A study of Mus musculus with 9 samples.

Results

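The 9 genes described here encode the vascular endothelial growth factors (VEGFs) and their receptors. They are the ligand genes Vegfa, Vegfb, Vegfc and Pgf, the receptor genes Flt1, Kdr and Flt4, and the co-receptor genes Nrp1 and Nrp2. They were chosen by gene symbol among the 25468 genes of the deposited table, and all 9 were found and were expressed highly enough to be tested. Bulk RNA sequencing measured their expression in hearts of wild-type mice. Of the 9 libraries, 3 were of sham-operated hearts, 3 of hearts 1 day after acute myocardial infarction and 3 of hearts 7 days after it. The labels give no day for the sham hearts, so the same 3 sham libraries served both times. For strain, age, the region of the heart and how the infarct was made, nothing was given in the sources used here. Hearts of mice without Hdc, which the series also describes, were not analysed here.

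VEGF ligands are secreted dimers that make endothelial cells divide, migrate and become permeable by activating receptor tyrosine kinases on their surface. VEGF-A acts mainly through KDR (VEGF receptor-2), the main signalling receptor of blood vessels. FLT1 (VEGF receptor-1) binds VEGF-A more tightly but signals weakly, and also binds VEGF-B and placental growth factor (PGF). FLT4 (VEGF receptor-3) is the receptor of VEGF-C and VEGF-D and is best known for the growth of lymphatic vessels. Neuropilins bind VEGFs and class 3 semaphorins and assist the receptors. In the adult heart, cardiomyocytes are a main source of VEGF-A and VEGF-B, and the receptors are mostly on endothelium.

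Several of these genes give more than 1 protein, and the sequences that tell their transcripts apart are shown first because 2 of the results below rest on them. VEGF-A proteins differ in whether they hold the stretches encoded by 2 neighbouring exons, of 72 and 132 bases, that bind heparin and keep the growth factor near the cell. The main Vegfa transcript holds the second of these exons alone, a longer form holds both, and the freely diffusible short form holds neither. After a shared stretch in lower case, the capitals give the first bases that differ, read from the GENCODE M21 transcripts of GRCm38.
Vegfa-202 (second exon alone): aaagccagaaaaTCACTGTGAGCCTTGTTC
Vegfa-207 (both exons): aaagccagaaaaAAAATCAGTTCGAGGAAA
Vegfa-211 (neither exon): aaagccagaaaaATGTGACAAGCCAAGGCG
Flt1 gives a membrane receptor of 1333 codons from 30 exons. It also gives a shorter transcript of 13 exons and 688 codons, which reads on where the long form is spliced. That short form is the soluble receptor (sFLT1), which lacks the membrane and kinase parts and traps ligand outside the cell. The capitals again mark where the transcripts part.
Flt1-202 (membrane form): aagttctcgttagagATTCGGAAGCGCCAC
Flt1-203 (soluble form): aagttctcgttagagGTGAGCACTGCGGCA

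Levels are given in FPKM, counts of fragments scaled to the transcript's length and the size of the library, and summed over the transcripts of a gene. Fold changes are differences of log2(FPKM + 1) from limma, with their standard error (SE), and a gene is called at a Benjamini-Hochberg adjusted p under 0.05 over the 13514 genes tested. Summed over all genes, FPKM were between 521643 and 792632 per library, and 24.4% to 39.8% of them came from mitochondrially encoded genes. The number of reads behind a value is unknown. Some libraries held RNA of marker genes of other tissues, and its source was not tested. Lung epithelium markers summed to 302 FPKM in sham replicate 1 and 1960 FPKM in day 1 replicate 2, against 94.7 FPKM or less in the others. Hopx alone gave 94 FPKM of that sum in sham replicate 3 and 88.1 FPKM in sham replicate 1. Scgb1a1 was at 172 FPKM in sham replicate 1, 780 in day 1 replicate 2 and 14.3 in day 1 replicate 1. Sftpc was at 728 FPKM in day 1 replicate 2, 10.3 in day 7 replicate 1 and 0.0619 in sham replicate 1. T and natural killer cell markers summed to 62.4 FPKM in day 7 replicate 2 and 18.1 FPKM or less in the others, and skeletal muscle markers to 187 FPKM in day 7 replicate 2 and 9.16 FPKM or less in the others. Atrial markers summed to 2746, 1462 and 244 FPKM in sham replicates 1, 2 and 3. They summed to 11198, 4430 and 290 FPKM at day 1 and to 5476, 812 and 1437 FPKM at day 7. Day 1 replicate 3 was thus the day 1 library with the least atrial signal. Leaving it out, as is done below, keeps the day 1 libraries with 4430 FPKM or more. In sham replicate 2, Nppa alone gave 1413 FPKM of the atrial sum. Myl7, another marker of that list, was at 13.2 FPKM there, against 619 and 30.1 FPKM in sham replicates 1 and 3. Nppa also gave 5921 FPKM of the sum in day 1 replicate 1 and 3465 FPKM in day 7 replicate 1. Adipocyte markers summed to 544 FPKM in sham replicate 1 and 141 FPKM or less in the others. All 20 pan-endothelial markers were tested, and their summed level was 572 to 597 FPKM in sham, 580.4 to 779 at day 1 and 631 to 949 at day 7.

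Relative to sham, expression of the 2 most abundant ligand genes, Vegfa and Vegfb, fell at day 1. At day 7 both were again lower than in sham, Flt1 was also lower, and Flt4 was higher. At day 1, 2 of the 9 genes were called, both lower, where 14.7% of all genes tested were called lower and 13.4% higher. At day 7, 3 were called lower and 1 higher, where 17.3% of all genes were called lower and 15.7% higher. Between day 7 and day 1 none of the 9 was called by limma, where 2.71% of all genes were called higher and 2.14% lower. Vegfc, Flt4 and Nrp2 had unadjusted p-values of 0.0028, 0.0216 and 0.0356 there. The median log2 fold change over the 9 genes was -0.23 at day 1 and -0.20 at day 7 against sham, and 0.26 for day 7 against day 1. Over all genes tested the corresponding medians were -0.01, -0.02 and -0.01. Both comparisons with sham share the same control libraries.

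**Figure D1:**
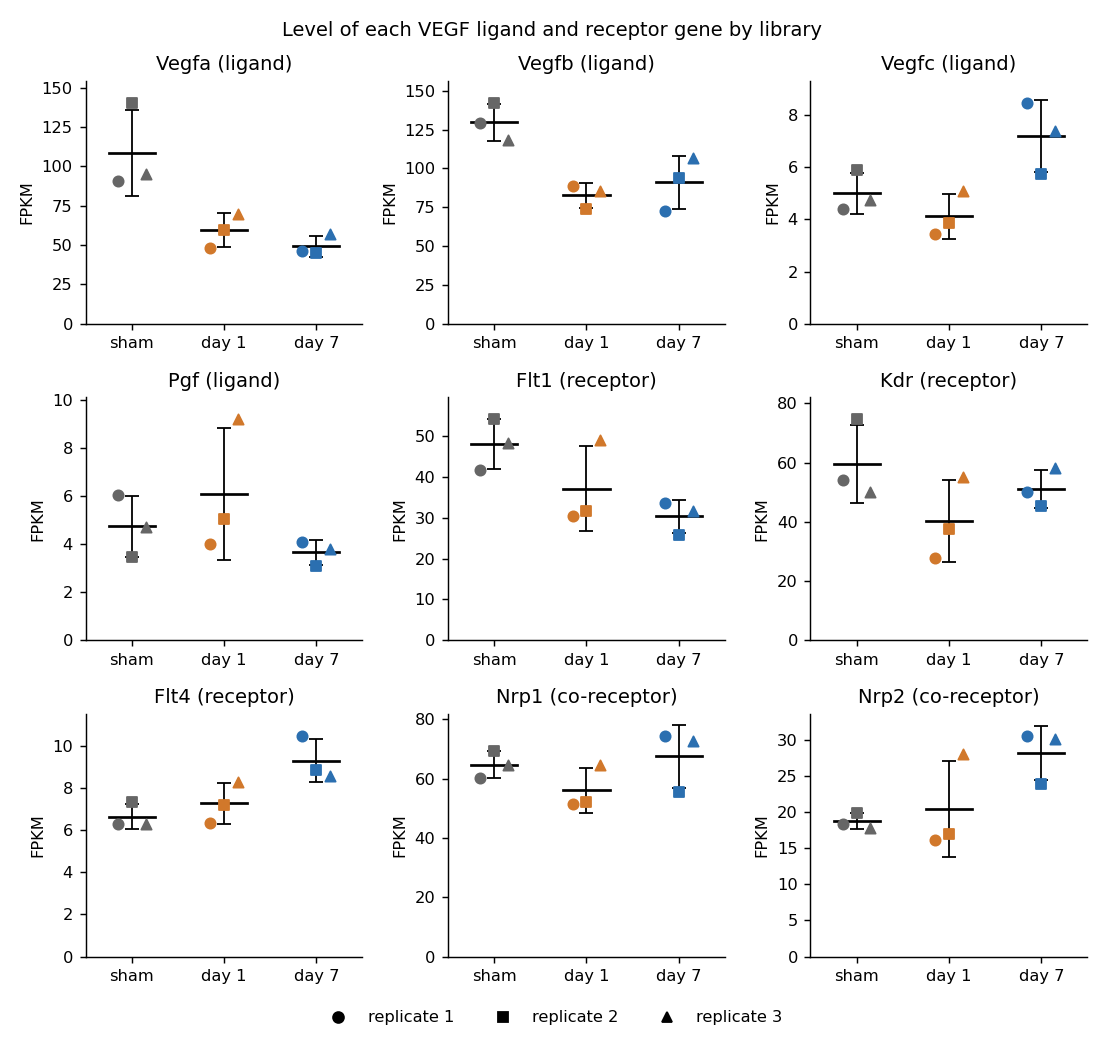
FPKM of each gene (vertical axis, from 0) in the 9 libraries by group (horizontal axis), with symbols for replicates, a bar at the mean and whiskers of 1 SD (n = 3). The sham points of Vegfa, at 91 FPKM or more, all lie above the day 1 and day 7 points, which reach 69.8 FPKM, and the day 7 points of Flt4 lie above all others.

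Vegfa encodes VEGF-A, the main ligand of blood vessel growth. Sham replicates 1, 2 and 3 held 91, 140.2 and 94.9 FPKM of it. The day 1 libraries held 48.5, 59.9 and 69.8 FPKM and the day 7 libraries 46, 45 and 56.9 FPKM. Every sham library was above every infarct library, and the 2 infarct groups overlapped. The mean fell from 109 ± 27.3 FPKM (SD, n = 3) in sham hearts to 59.4 ± 10.7 FPKM 1 day after infarction (log2 fold change -0.85, SE 0.20, adjusted p = 0.0153, limma). At day 7 it was 49.3 ± 6.58 FPKM (-1.11, SE 0.20, adjusted p = 0.00667, limma). Day 7 against day 1 gave -0.26 (SE 0.20, adjusted p = 0.477, limma). The call at day 7 held under all 24 alternatives, with log2 fold changes between -1.32 and -0.75. Without the 2 libraries with lung markers, the day 1 value was -0.98 with an adjusted p of 0.0762 in limma.

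Vegfb encodes VEGF-B, a FLT1 ligand abundant in heart muscle. It was the most highly expressed of the ligands in all 9 libraries, at 129, 142 and 118 FPKM in the sham libraries. Day 1 libraries held 89, 73.8 and 85.2 FPKM and day 7 libraries 72.4, 93.9 and 107 FPKM, again with no overlap between sham and either infarct group. The log2 fold change was -0.64 (SE 0.15, adjusted p = 0.0165, limma) at day 1 and -0.52 (SE 0.15, adjusted p = 0.0307, limma) at day 7. The call at day 1 was lost without sham replicate 2 (adjusted p = 0.0629, limma) or without day 1 replicate 2 (adjusted p = 0.0641, limma). At day 7 it was lost in 10 of 24 alternatives, among them leaving out sham replicate 1 or 2 or day 7 replicate 1 or 2 (adjusted p = 0.0586 to 0.102, limma). Without both libraries with lung markers, the adjusted p in limma was 0.136 at day 1 and 0.09 at day 7.

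Cardiomyocyte markers fell beside these 2 ligands. Of the 12 markers tested, 7 were called lower at day 1 and 6 at day 7, where 14.7% and 17.3% of all genes were. None of the 12 was called higher, and their median log2 fold change was -0.74 and -0.72. Without both libraries with lung markers, none was called at day 1 and 1 at day 7, and without day 7 replicate 2, left out of the list counts after its marker levels had been seen, 2 were called at day 7. Their summed level was 39510 to 43257 FPKM in sham, 20872 to 26545 at day 1 and 16906 to 29659 at day 7. In bulk tissue, fewer cells of a type and less RNA per cell cannot be told apart, and the part of cardiomyocytes in the fall of Vegfa and Vegfb was not tested. FPKM was taken as deposited. Rescaling every library to a common total (TPM) moved the median log2 fold change of all genes to 0.23 at day 1 and 0.30 at day 7. It also moved the share of called genes that were higher from 47.7% to 80.3% at day 1 and from 47.6% to 87.8% at day 7. Under that scaling Vegfb at day 7 was -0.17 (adjusted p = 0.274, limma), and Vegfa stayed called lower at both days.

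Vegfc encodes VEGF-C, the ligand of FLT4 that drives lymphatic growth. Its level was 4.37, 5.87 and 4.72 FPKM in sham, 3.41, 3.85 and 5.07 FPKM at day 1 and 8.44, 5.72 and 7.38 FPKM at day 7. The day 7 libraries were all above the day 1 libraries, while sham overlapped both. Day 7 against day 1 gave a log2 fold change of 0.68 (SE 0.16, adjusted p = 0.054, limma), and day 7 against sham gave 0.44 (SE 0.16, adjusted p = 0.067, limma). Neither passed the threshold. Day 7 against day 1 was called without day 1 replicate 3 (0.81, adjusted p = 0.0436, limma) and without day 7 replicate 2 (0.81, adjusted p = 0.0439, limma). Day 7 against sham was called in 5 of 24 alternatives, including TPM scaling (0.79, adjusted p = 0.019, limma), and leaving out day 1 replicate 3 (adjusted p = 0.0484) or day 7 replicate 2 (adjusted p = 0.04).

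Pgf encodes placental growth factor, which binds FLT1 and not KDR. It was at 6.02, 3.47 and 4.71 FPKM in sham, 4.01, 5.05 and 9.19 FPKM at day 1 and 4.09, 3.07 and 3.81 FPKM at day 7. The groups overlapped, with the highest value in day 1 replicate 3. The log2 fold change was 0.26 (SE 0.26, adjusted p = 0.484, limma) at day 1 and -0.28 (SE 0.26, adjusted p = 0.425, limma) at day 7. Without day 1 replicate 3 the day 1 value was -0.03.

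Among the receptors, Flt1 was at 41.8, 54.2 and 48.4 FPKM in sham, 30.5, 31.8 and 49.1 FPKM at day 1 and 33.7, 25.8 and 31.7 FPKM at day 7. All day 7 libraries were below all sham libraries, and day 1 replicate 3 lay within the sham range. At day 7 the log2 fold change was -0.65 (SE 0.19, adjusted p = 0.0323, limma), and at day 1 it was -0.39 (SE 0.19, adjusted p = 0.157, limma). Without day 1 replicate 3 the day 1 value was -0.60 and was called (adjusted p = 0.0209, limma). The day 7 call was lost in 11 of 24 alternatives, among them leaving out sham replicate 2 or 3 or any day 7 replicate (adjusted p = 0.0538 to 0.107, limma). It was also lost under TPM scaling (-0.30, adjusted p = 0.236, limma) and without both libraries with lung markers (-0.74, adjusted p = 0.0579, limma). With the most expressed transcript, the membrane form, in place of the gene sum, the day 7 value was -0.44 and uncalled (adjusted p = 0.106, limma).

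Kdr, the main signalling receptor, was at 54.1, 74.6 and 49.9 FPKM in sham, 27.7, 37.7 and 55 FPKM at day 1 and 49.9, 45.3 and 58.1 FPKM at day 7. The day 1 libraries spread widely, with replicate 3 inside the sham range. The log2 fold change was -0.59 (SE 0.24, adjusted p = 0.102, limma) at day 1 and -0.20 (SE 0.24, adjusted p = 0.542, limma) at day 7. Leaving out day 1 replicate 3 gave -0.84 at day 1, which was called (adjusted p = 0.0227, limma). At day 7 the sign changed under TPM scaling, to 0.15.

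Flt4, the receptor of VEGF-C, was at 6.32, 7.32 and 6.27 FPKM in sham, 6.36, 7.18 and 8.31 FPKM at day 1 and 10.5, 8.88 and 8.55 FPKM at day 7. Every day 7 library was above every other library. The log2 fold change was 0.43 (SE 0.11, adjusted p = 0.0226, limma) at day 7 and 0.11 (SE 0.11, adjusted p = 0.489, limma) at day 1. The day 7 call was lost without sham replicate 1 (adjusted p = 0.0663, limma), sham replicate 3 (0.0674) or day 7 replicate 1 (0.071). It was also lost without both libraries with lung markers (0.40, adjusted p = 0.0936, limma) and with the endothelial marker level as a covariate (0.26, adjusted p = 0.0983, limma).

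Both co-receptor genes were uncalled. Nrp1, which encodes the neuropilin that assists KDR, was at 60.2, 69.3 and 64.7 FPKM in sham, 51.4, 52 and 64.6 FPKM at day 1 and 74.5, 55.4 and 72.7 FPKM at day 7. Its log2 fold changes were -0.21 (SE 0.14, adjusted p = 0.292, limma) and 0.05 (SE 0.14, adjusted p = 0.807, limma), and both signs changed under some alternatives. Nrp2, which encodes the neuropilin that assists FLT4, was at 18.4, 20 and 17.8 FPKM in sham, 16.2, 17 and 28.1 FPKM at day 1 and 30.6, 23.9 and 30.1 FPKM at day 7. All day 7 libraries were above all sham libraries, and day 1 replicate 3 was within the day 7 range. The day 7 log2 fold change was 0.56 (SE 0.19), with an adjusted p of 0.0546 in limma, just short of the threshold. It passed in 9 of 24 alternatives, including TPM scaling (0.92, adjusted p = 0.00891, limma) and leaving out day 1 replicate 3 (0.56, adjusted p = 0.00921, limma). Without that library, day 7 against day 1 was called as well (0.72, adjusted p = 0.0261, limma).

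**Figure D2:**
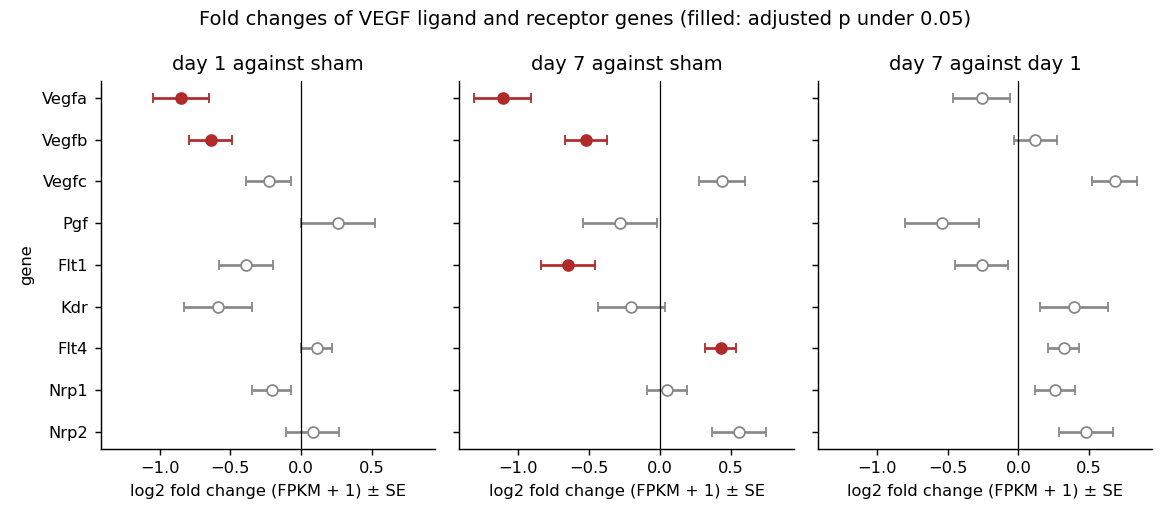
Log2 fold change of FPKM + 1 (horizontal axis) for each gene (vertical axis) in the 3 comparisons, with whiskers of 1 SE and filled points for an adjusted p under 0.05. Vegfa and Vegfb are filled and negative at both days, Flt1 is filled and negative and Flt4 filled and positive at day 7, and no point is filled for day 7 against day 1.

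FPKM is per length, so levels can be ranked across genes. In sham the order of mean levels was Vegfb, Vegfa, Nrp1, Kdr, Flt1, Nrp2, Flt4, Vegfc and Pgf. Neighbours overlapped between libraries for Vegfb and Vegfa, Nrp1 and Kdr, Kdr and Flt1, and Vegfc and Pgf. At day 7 Vegfb was still highest at 90.9 ± 17.3 FPKM, followed by Nrp1 at 67.5 ± 10.6, Kdr at 51.1 ± 6.48 and Vegfa at 49.3 ± 6.58. Neighbours in that order overlapped between libraries. The ratio of Vegfa to Vegfb was below 1 in all 9 libraries, 0.70 to 0.99 in sham, 0.54 to 0.82 at day 1 and 0.48 to 0.64 at day 7. By this ratio, the sham and day 7 libraries did not overlap.

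The balance of transcript forms within a gene was examined next, in shares of the gene's summed FPKM. Reads shared by transcripts had been divided among them before deposit. Each transcript was compared with the others of its gene by limma diffSplice, a test added after the values had been seen. It covered 12090 transcripts of 4450 genes, and 1.94% of transcripts were called at day 1, 6.03% at day 7 and 3.47% for day 7 against day 1.

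The soluble form of Flt1 took 37.2%, 33.9% and 36.3% of the gene in sham. It took 25.7%, 26.4% and 26% at day 1 and then 27.8%, 24% and 26.7% at day 7. Every infarct library was below every sham library. In FPKM the soluble form averaged 17.2 ± 1.44 in sham hearts, 9.67 ± 2.70 at day 1 and 8.01 ± 1.62 at day 7 (n = 3), and the membrane form was at 31 ± 4.79, 27.5 ± 7.69 and 22.4 ± 2.48. The limma diffSplice test gave -0.60 at day 1 (adjusted p = 0.382) and -0.58 at day 7 (adjusted p = 0.291), so neither was called. With 3 libraries in each group, the smallest two-sided p of an exact permutation test is 0.1. The ratio of Vegfa to the soluble Flt1 form was 6.29 ± 1.18 in sham, 6.26 ± 0.835 at day 1 and 6.29 ± 1.22 at day 7.

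Within Vegfa, the form with the second heparin-binding exon alone took 62.2% ± 4.24 of the gene in sham, 54.8% ± 3.04 at day 1 and 52.9% ± 3.80 at day 7 (SD, n = 3). The form with both exons took 28.7% ± 1.19, 30.8% ± 5.55 and 37% ± 3.31, and at day 7 no library overlapped sham. Transcripts with neither exon took 4.23%, 3.61% and 2.01% in sham. They took 6.98%, 10.3% and 7.45% in the day 1 libraries and 7.25%, 8.78% and 4.68% in those of day 7. All infarct libraries were above all sham libraries. Their level was 3.60 ± 1.59 FPKM in sham, 4.92 ± 1.42 at day 1 and 3.32 ± 0.642 at day 7. One of the 2 transcripts with neither exon, Vegfa-211, was called against the others of its gene at day 7 (log2 difference 2.20, adjusted p = 0.0287, diffSplice). It was not called at day 1 (1.91, adjusted p = 0.105, diffSplice). Vegfa-211 was at 0.708, 5.05 and 0.113 FPKM in sham replicates 1, 2 and 3 and at 3.34, 3.95 and 2.66 FPKM at day 7. Sham replicate 2 thus lay above every day 7 library. The day 7 call was lost in 5 of 12 alternatives: without both libraries with lung markers (adjusted p = 0.0878), sham replicate 1 (0.0557), sham replicate 3 (0.171), day 7 replicate 1 (0.114) or day 7 replicate 3 (0.0565). The other transcript with neither exon, Vegfa-201, averaged 1.64 ± 1.57 FPKM in sham and 0.00116 ± 0.000493 FPKM at day 7. In sham replicates 1, 2 and 3 it was at 3.14, 0.00018 and 1.79 FPKM, high where Vegfa-211 was low. The part of the division of reads between these 2 transcripts was not tested.

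Vegfb has a form of 188 codons, which binds heparin, and one of 207 codons, which diffuses freely. The longer form took 42.4%, 44.8% and 41.4% of the gene in sham. Its share was 44.5%, 43.7% and 43.7% in the day 1 libraries, then 48.4%, 47.6% and 49.4% in those of day 7. The day 7 libraries were all above the rest. The diffSplice test gave 0.32 at day 7 against sham (adjusted p = 0.49), which was not called. Vegfc, Pgf, Kdr, Flt4 and Nrp1 had 1 transcript each in the deposited table. Nrp2 had 6, and none of the 4 that were tested was called.

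**Figure D3:**
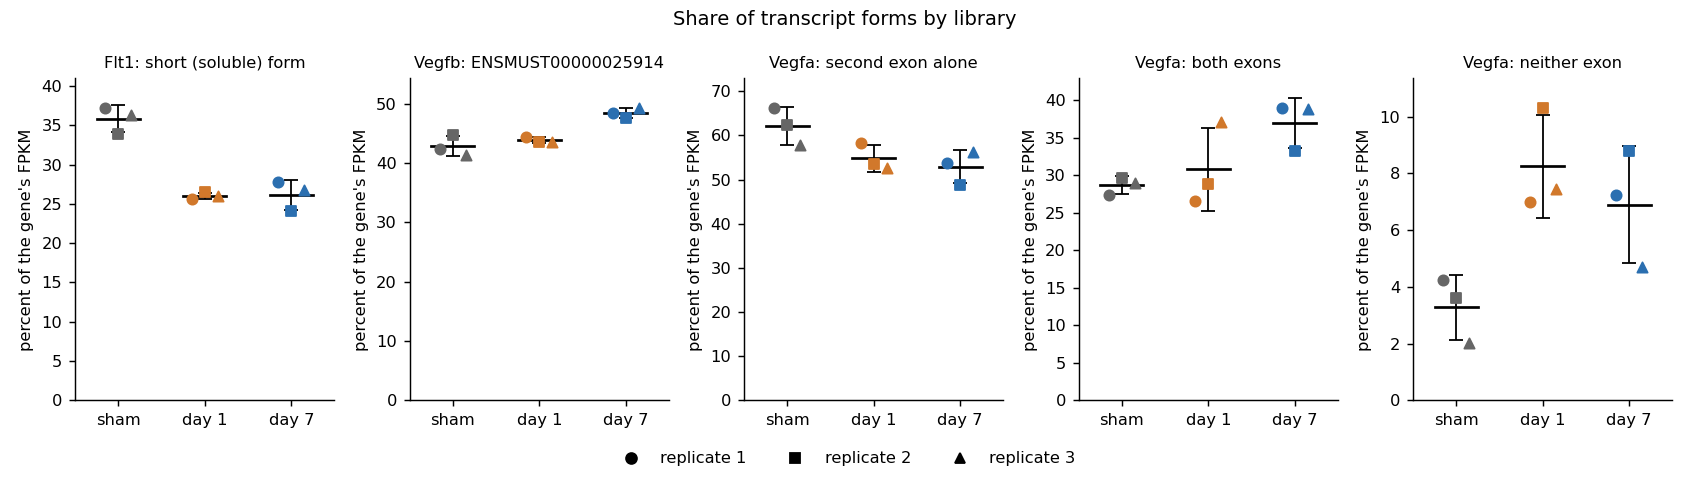
Share of the gene's summed FPKM in percent (vertical axis, from 0) for the soluble Flt1 transcript, the longer Vegfb transcript and 3 classes of Vegfa transcripts, by library and group, with the mean and 1 SD (n = 3). The soluble Flt1 share is 33.9% or more in sham and 27.8% or less after infarction, and the Vegfa share with neither exon is 4.23% or less in sham and 4.68% or more after it.

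Since the receptors are mostly endothelial, each gene was also set against 20 pan-endothelial markers of the same library. The mean log2(FPKM + 1) of the markers was 4.56 ± 0.03 in sham, 4.65 ± 0.26 at day 1 and 4.87 ± 0.27 at day 7. Relative to them, Flt1 was at 0.90, 1.21 and 1.05 in sham. It was at 0.52, 0.51 and 0.70 in the day 1 libraries and at -0.05, 0.09 and 0.25 in the day 7 libraries. No 2 groups overlapped. Vegfa, set against the same markers, was at 2.19 ± 0.32, 1.26 ± 0.13 and 0.78 ± 0.35, again with no overlap between any groups. Kdr was at 1.34 ± 0.29, 0.66 ± 0.25 and 0.83 ± 0.30, and Flt4 was at -1.63 ± 0.10, -1.60 ± 0.12 and -1.51 ± 0.15, with overlap of all Flt4 groups. Pgf was at -2.65 ± 0.15 at day 7, below every sham and day 1 library. A limma fit with the marker level as a covariate called Flt1 lower at day 1 (-0.48, adjusted p = 0.0245), where it was uncalled without the covariate, and at day 7 (-0.97, adjusted p = 0.0142). In that limma fit Vegfa was called lower at both days (-0.88 and -1.23, adjusted p = 0.018 and 0.0243), Vegfb at day 1 alone (-0.61, adjusted p = 0.0225), and none of the 9 was called for day 7 against day 1.

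The choice of endothelial markers mattered. Of 11 markers of heart capillaries, 3 were called lower at day 1 and 4 at day 7, where 14.7% and 17.3% of all genes were. None of the 11 was called higher. Under TPM scaling 1 was called lower at day 1. At day 7, 4 were still called lower and 1 was called higher, and the list's median there changed from -0.29 to 0.05. Rgcc, a cell cycle regulator abundant in capillary endothelium, fell from 52.2 ± 5.01 FPKM to 18.8 ± 4.91 FPKM at day 1 and 18.6 ± 4.20 FPKM at day 7 (log2 fold changes -1.45 and -1.46, adjusted p = 0.00381 and 0.00382, limma). Aqp1, a water channel of capillaries, fell at both days, by 0.52 and 0.85 on the log2 scale. Not all of the list fell. Meox2 was at 7.82 to 11.6 FPKM in sham and 12.5 to 14.5 FPKM at day 7. Car4 was at 9.47 to 14.7 FPKM in sham, 14.8 to 20.6 at day 1 and 5.04 to 14.3 at day 7. Fabp4 was at 1420 FPKM in sham replicate 1, the library with most adipocyte markers, and at 719 and 810 FPKM in the other sham libraries. The part of other cells in this list was not tested. With the capillary list as the reference, Flt1 differed from sham by 0.02 at day 1 and -0.17 at day 7, in place of -0.48 and -0.96. Other signs turned as well. At day 7 Kdr differed by 0.28 in place of -0.51, Pgf by 0.20 in place of -0.59 and Nrp1 by 0.53 in place of -0.26. At day 1 Vegfc differed by 0.18 in place of -0.32, Nrp1 by 0.20 in place of -0.30 and Nrp2 by 0.49 in place of -0.01.

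**Figure D4:**
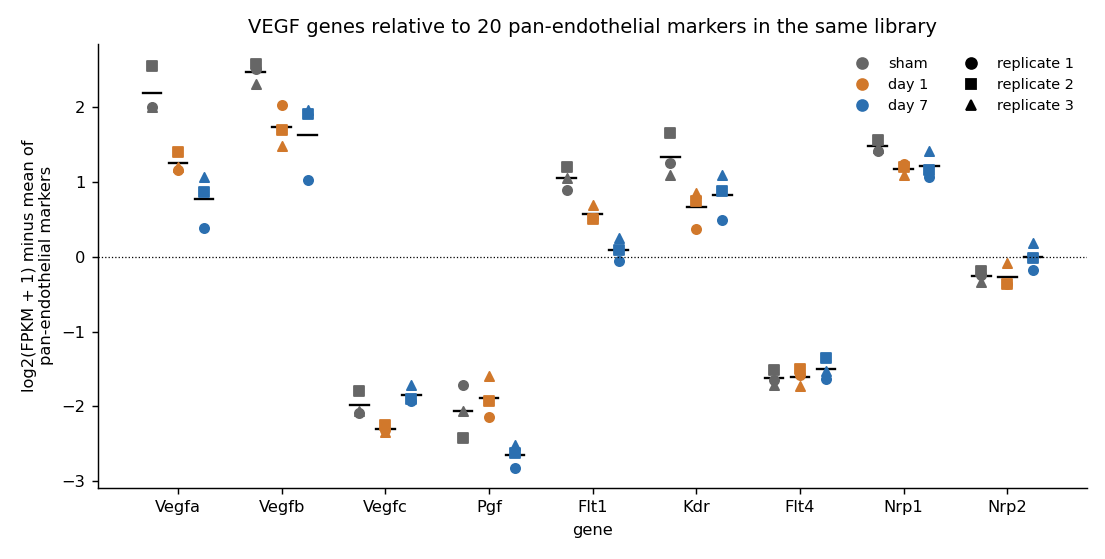
Log2(FPKM + 1) of each gene minus the mean of 20 pan-endothelial markers in the same library (vertical axis), by gene (horizontal axis) and group, with a bar at each group mean (n = 3). The 3 groups of Flt1 and of Vegfa are separate and step down from sham to day 7, while the groups of Flt4 overlap.

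The list counts above and below stand beside shares over all genes tested. These were 13.4% higher and 14.7% lower at day 1, and 15.7% and 17.3% at day 7. Without both libraries with lung markers, 256 of all 13514 genes were called higher and 146 lower at day 1, and 1078 and 1047 at day 7. Under TPM scaling 2445 were called higher and 601 lower at day 1, and 3809 and 527 at day 7. Other ligands of these receptors were followed as a list of 8, of which 7 were tested. At day 1, 2 were called higher and 1 lower, and at day 7, 2 were called higher and none lower. Vegfd, the other FLT4 ligand, was at 2.28, 1.28 and 2.46 FPKM in sham, 6.99, 7.52 and 3.77 FPKM at day 1 and 12.6, 7.99 and 7.37 FPKM at day 7. Both infarct groups were above sham in every library (log2 fold changes 1.22, SE 0.27, adjusted p = 0.0143, and 1.77, SE 0.27, adjusted p = 0.00458, limma). The ratio of Vegfd to Vegfc was below 1 in all 3 sham libraries, at 0.22 to 0.52, and above 1 in 2 of 3 libraries at each day after infarction. Of the semaphorins, which bind neuropilins and plexins, Sema3a rose at day 1 (log2 fold change 0.61, adjusted p = 0.0393, limma) and Sema3b fell (-0.63, adjusted p = 0.0106, limma). Sema3d rose at day 7 from 3.60 ± 0.805 to 9.99 ± 3.93 FPKM (adjusted p = 0.0161, limma). Without both libraries with lung markers, 1 of the 7 was called at each day, lower at day 1 and higher at day 7. Under TPM scaling none was called lower.

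Of 19 tested co-receptors and modulators, 5 were called higher and 1 lower at day 1, and 6 and 1 at day 7. Dab2, an endocytic adaptor, rose from 23.9 ± 4.29 FPKM to 59.9 ± 9.81 FPKM at day 1 and 44 ± 4.11 FPKM at day 7 (adjusted p = 0.00257 and 0.00757, limma). The angiogenesis inhibitors Thbs1 and Thbs2 were both higher at day 7, by 1.96 (adjusted p = 0.00837) and 1.97 (adjusted p = 0.00457, limma) on the log2 scale. Thbs2 also rose from day 1 to day 7 (2.38, adjusted p = 0.00807, limma). Plxna2, a semaphorin receptor, fell at both days (-0.52 and -0.57, adjusted p = 0.0177 and 0.0122, limma) and was chosen after its values were seen. Of 10 fibroblast markers, 4 rose at day 1 and 6 at day 7, Col1a1 from 58 ± 17.2 to 253 ± 33.7 and 821 ± 200.2 FPKM, and their part in these changes was not tested. TPM scaling raised the list's count at day 7 to 14 higher and 0 lower. Without both libraries with lung markers, 2 were called higher at day 1 and 5 at day 7, and none lower.

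Of 29 tested genes of the intracellular signal, 4 were called higher and 2 lower at each day. Over all genes tested, 13.4% were called higher and 14.7% lower at day 1, and 15.7% and 17.3% at day 7. Src, a tyrosine kinase downstream of KDR, rose from 1.88 ± 0.358 FPKM to 3.07 ± 0.552 FPKM at day 1 and 4.99 ± 0.973 FPKM at day 7 (adjusted p = 0.0394 and 0.00367, limma). Pik3r1, the regulatory subunit of phosphoinositide 3-kinase, fell at day 7 from 35.4 ± 3.38 to 24.1 ± 3.42 FPKM (adjusted p = 0.0126, limma), and under TPM scaling 5 of the list were called higher at day 1 and 10 at day 7, and none lower. The endothelial nitric oxide synthase gene Nos3 was at 10.9, 11.2 and 11.7 FPKM in sham, 10.1, 8.13 and 13.7 FPKM at day 1 and 13.6, 7.99 and 8.91 FPKM at day 7, with the sham range inside that of both days. Without both libraries with lung markers, none of the 29 was called at day 1 and 1, higher, at day 7.

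Of 20 tested genes listed here as induced by VEGF in endothelium, 4 were called higher and 2 lower at day 1. At day 7, 9 were called higher and none lower. Whether VEGF induces every gene of the list was not checked. Over all genes tested, 13.4% were called higher and 14.7% lower at day 1, and 15.7% and 17.3% at day 7. Apln, the tip cell peptide apelin, rose from 1.63 ± 0.169 FPKM to 7.24 ± 4.68 FPKM at day 1 and 5.53 ± 1.66 FPKM at day 7 (adjusted p = 0.0149 and 0.0239, limma). Mmp14, a membrane protease, rose by 1.00 and 1.64 on the log2 scale (adjusted p = 0.00666 and 0.00184, limma). Cxcr4, a chemokine receptor also on leukocytes, rose at day 7 from 8.63 ± 0.242 to 21 ± 2.79 FPKM (adjusted p = 0.00724, limma). Nr4a1, an immediate early transcription factor, fell at day 1 from 11 ± 3.33 to 5 ± 1.90 FPKM (adjusted p = 0.0239, limma) and was 11.9 ± 2 at day 7. Dll4 and Esm1, both markers of tip cells, were not called at either day. Several of the genes are expressed by fibroblasts and myeloid cells too, whose markers rose at both days, and the part of those cells was not tested. Without both libraries with lung markers, none of the 20 was called at day 1 and 3 were called higher at day 7. Under TPM scaling none of the 20 was called lower at day 1. Calls fell over all 13514 genes too. Without those libraries 256 were called higher and 146 lower at day 1, and TPM left 601 called lower at day 1.

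Of 13 tested Notch genes, which restrain the response to VEGF, 2 were called higher at each day and none lower. Jag1, a Notch ligand, rose at day 7 from 6.76 ± 0.848 to 11.6 ± 1.25 FPKM (adjusted p = 0.00538, limma), and Lfng, which modifies Notch receptors, rose at both days (log2 fold changes 0.81 and 0.65, adjusted p = 0.0126 and 0.0247, limma). None of the 13 was called at day 1 without both libraries with lung markers and 1, Jag1, at day 7, and Lfng was uncalled (0.75 and 0.66, adjusted p = 0.108 and 0.0755, limma). The day 7 call of Lfng was also lost without day 7 replicate 2 (adjusted p = 0.0543, limma). Under TPM scaling 2 were called higher at day 1 and 7 at day 7. Of 9 tested hypoxia genes, 2 were called lower at day 1, and 1 higher and 1 lower at day 7. Epas1, which encodes the hypoxia-inducible factor HIF-2 alpha of endothelium, was at 104, 117 and 110.5 FPKM in sham, 71.2, 89.6 and 91.3 FPKM at day 1 and 79.6, 82.2 and 89.5 FPKM at day 7. It was lower in every infarct library than in every sham library (log2 fold change -0.40 at both days, adjusted p = 0.0331 and 0.0307, limma). Egln1, an oxygen sensor that marks these factors for breakdown, fell at day 1 (-0.59, adjusted p = 0.0397, limma). Under TPM scaling no gene of the hypoxia list was called lower at either day, and 1 and 2 were called higher; without both libraries with lung markers none was called at all.

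Of 10 tested markers of lymphatic endothelium, 2 were called higher and 1 lower at day 1, and 2 and 2 at day 7. Prox1, the defining transcription factor of lymphatic endothelium, which cardiomyocytes also express, was at 14.3, 17.1 and 16.5 FPKM in sham, 10.9, 8.68 and 9.79 FPKM at day 1 and 9.18, 10.3 and 13.6 FPKM at day 7. It was lower at both days (adjusted p = 0.0127 and 0.0269, limma), but under TPM scaling 5 genes of this list were called higher at day 1 and 6 at day 7, and none lower. Leaving out both libraries with lung markers gave 1 higher and none lower at day 1, and 2 higher and 1 lower at day 7. Prox1 was then uncalled (adjusted p = 0.082 and 0.0514, limma), and without day 7 replicate 2 it was uncalled at day 7 (adjusted p = 0.0731, limma). Pdpn, a membrane glycoprotein that fibroblasts and other cells carry too, rose at both days (1.96 and 1.71 on the log2 scale, adjusted p = 0.0014 and 0.00226, limma). The lymphatic chemokine gene Ccl21a ranged from 27.2 to 49.5 FPKM in sham and 47.4 to 103 FPKM at day 7. Its highest value was in day 7 replicate 2, the library with T cell markers. Without that library it differed from sham by 0.45 on the log2 scale at day 7 (adjusted p = 0.319, limma), in place of 0.75 (adjusted p = 0.115, limma). Summed over the list, levels were 142 to 177 FPKM in sham, 199.7 to 223 FPKM at day 1 and 174 to 270 FPKM at day 7. The sum was thus above every sham library at day 1 and overlapped sham at day 7. The highest sum was again in day 7 replicate 2. The part of lymphatic cells in the level of Flt4 was not tested.

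The genes whose levels followed each member most closely over the 9 libraries were named by Pearson r of log2(FPKM + 1), as a description. The libraries share their groups, so genes that differ between groups in the same way reach a high r. Vegfa was nearest to Armc1 (r = 0.987) and Ccdc43 (0.985), and Vegfb to Grsf1 (0.996) and Ndufb10 (0.990), both of which encode mitochondrial proteins. Vegfc was nearest to Notch3 (0.986), a receptor of pericytes and smooth muscle, and Dchs1 (0.974), and Pgf to Sema6b (0.921) and Junos (0.900). Flt1 was nearest to Xpo5 (0.982) and Fam175b (0.981), Kdr to Rasgrp3 (0.976) and Dctn3 (0.971), and Flt4 to Fmnl3 (0.975) and Pip5k1c (0.968). Nrp1 was nearest to Ptprg (0.969) and Strn4 (0.946), and Nrp2 to Vash1 (0.967), an angiogenesis inhibitor, and Dph2 (0.966).

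Hypoxia is a known inducer of Vegfa and Flt1, so the 250 bases before the annotated start of each gene were searched for the core of the hypoxia response element. Sequences are from RefSeq on GRCm38.p6, which matched all 9 genes with 11 windows. The motif was ACGTG or GCGTG on either strand, and it was in 7 of the 11 windows and in 38.6% of all 32851 windows of that length. The GC box GGGCGG, on either strand, was in 10 of 11 windows and in 32.7% of all. The 4 genes called at day 7 are shown, with hypoxia core matches in capitals. Flt1 has 1 match and Vegfb has 2, and Flt4 has none. Vegfa has 2 starts, and the window of the upstream one, shown here, has none. The window of the other (chr17:46025164-46025413) has 2 and lies downstream, inside the gene. Both matches there fall in coding sequence of Vegfa, and that window is among the 7 counted above.
Vegfa promoter (chr17:46032378-46032627, minus strand): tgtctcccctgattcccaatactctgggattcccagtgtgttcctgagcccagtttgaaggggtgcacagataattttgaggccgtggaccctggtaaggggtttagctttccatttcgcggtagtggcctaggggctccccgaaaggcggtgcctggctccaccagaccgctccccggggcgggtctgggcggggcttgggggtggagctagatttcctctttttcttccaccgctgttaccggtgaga
Vegfb promoter (chr19:6987652-6987901, minus strand): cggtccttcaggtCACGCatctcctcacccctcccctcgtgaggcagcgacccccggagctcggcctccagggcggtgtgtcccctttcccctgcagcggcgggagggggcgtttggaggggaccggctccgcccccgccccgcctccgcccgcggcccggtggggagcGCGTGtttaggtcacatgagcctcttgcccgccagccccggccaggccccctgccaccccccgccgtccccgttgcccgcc
Flt1 promoter (chr5:147726012-147726261, minus strand): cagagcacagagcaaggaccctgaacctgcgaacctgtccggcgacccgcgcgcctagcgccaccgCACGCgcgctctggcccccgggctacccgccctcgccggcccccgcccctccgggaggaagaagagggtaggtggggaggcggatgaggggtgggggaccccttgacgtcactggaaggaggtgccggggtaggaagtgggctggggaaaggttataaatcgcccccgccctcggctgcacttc
Flt4 promoter (chr11:49609429-49609678, plus strand): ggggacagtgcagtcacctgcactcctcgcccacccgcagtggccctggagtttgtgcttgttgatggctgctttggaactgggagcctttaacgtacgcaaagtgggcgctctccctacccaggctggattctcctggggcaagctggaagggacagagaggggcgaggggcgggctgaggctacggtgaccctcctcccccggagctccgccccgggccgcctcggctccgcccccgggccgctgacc
The known hypoxia element of Vegfa lies farther upstream than this window. A match is a description of these letters and not of binding.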

How the data were processed

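TRIzol served for extraction of total heart RNA and the VAHTS Universal V6 kit for libraries, per the labels' protocols. The submitters' processing notes name HISAT2 2.1.0, HTSeq 0.11.2, FastQC 0.11.9 and the build GRCm39. Annotation release, strand setting and the tool that divided reads among transcripts were not given in the sources used here. Each deposited value is the FPKM of a transcript, made by the authors, for 55361 transcripts. Of the positive values, 11.8% were under 1e-06, so whole reads could not be recovered and depth is unknown.

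Transcript FPKM were summed per gene (25468 genes), and the 13514 genes with a mean of 1 FPKM or more were fitted on the log2(FPKM + 1) scale (limma 3.58.1, R 4.3.3; mean-variance trend), with 1 mean per group and two-sided tests. Fold changes on this scale understate the change of genes with low levels. The procedure was tested on simulated data. The labels do not say whether replicates are separate animals, so p-values measure only the spread of these samples, which may be technical. Members and lists were chosen with earlier results of these data known. All 9 members are named, with up to 4 called genes of the largest change per list and comparison, and the 2 genes most like each member over the 9 libraries. Plxna2, Nos3, Dll4, Esm1, Ccl21a, Meox2, Car4, Fabp4, Hopx, Scgb1a1, Sftpc, Nppa and Myl7 were chosen after their values were seen. Of the 256 list entries, all matched a gene. Exons of 1 member, Nrp1, overlap another gene, a microRNA on the same strand, in GENCODE M21, which served for exon structure only because its build is GRCm38. Alternatives changed the pseudocount, filter, scaling, limma settings, covariates and libraries.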

Additional observations from a re-analysis of the deposited data

Results flagged for a closer look

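Vegfc, relative to the pan-endothelial markers of the same library, lay below every sham library at day 1 in all 3 replicates, with a mean difference of -0.32 on the log2 scale, while at day 7 the mean difference was 0.13. It was singled out because the day 1 replicates all lay below the sham mean and the day 7 replicates all above it. In a limma fit with the pan-endothelial level as a covariate, Vegfc was at 0.48 for day 7 against day 1 (adjusted p = 0.0696), which was not called. With the capillary markers as the reference the mean differences were 0.18 at day 1 and 0.92 at day 7, so the day 1 value changed sign. Without the covariate the adjusted p was 0.054 in limma for day 7 against day 1.

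A minor Nrp2 transcript of 906 codons had a mean share below sham at day 1 and above it at day 7, with each replicate on the same side of the sham mean as its group. Its share of the gene was 1.05 percentage points lower than sham at day 1, a difference of -1.05, and 1.37 percentage points higher at day 7. Its share was 3.55%, 1.52% and 1.55% in the sham libraries, at most 2.03% at day 1 and 2.96% to 4.46% at day 7, and sham overlapped both. The highest sham share was that of replicate 1, one of the libraries with lung markers. Without it the differences were -0.38 at day 1 and 2.04 at day 7, an alternative chosen after seeing the data. The transcript's level was 1.37 FPKM or less in all libraries. The difference was not tested.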

How the results depend on the processing

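Vegfa at day 7 kept its call in all 24 alternatives and Vegfa at day 1 in 23. The number of the 9 genes called at day 1 was 2, and moved to 4 with array weights, to 0 without both libraries with lung markers and to between 1 and 4 leaving out single libraries. At day 7 it was 4, and moved to 2 with the endothelial covariate, to 1 without both libraries with lung markers and to between 1 and 6 leaving out single libraries. Under TPM the genes called at day 7 against sham changed. Vegfb (-0.17, adjusted p = 0.274, limma) and Flt1 (-0.30, adjusted p = 0.236, limma) lost their calls. Vegfc (0.79, adjusted p = 0.019, limma) and Nrp2 (0.92, adjusted p = 0.00891, limma) were called higher, and Flt4 kept its call. TPM without mitochondrially encoded genes made the same changes. For day 7 against day 1 the number of genes called was 0, and moved to 1 with median-ratio scaling, to 2 with array weights and to between 0 and 2 leaving out single libraries. The cause was not tested. Signs changed only for uncalled values. At day 1 these were Pgf without day 1 replicate 3 (-0.03, and up to 0.48 leaving out other libraries), Nrp1 under TPM (0.06) and TPM without mitochondrially encoded genes (0.01), and Nrp2 with array weights (-0.05), the endothelial covariate (-0.01) and without day 1 replicate 3 (-0.16, and up to 0.21 without others). At day 7 they were Pgf under TPM (0.01), Kdr under TPM (0.15) and TPM without mitochondrially encoded genes (0.02), and Nrp1 with the endothelial covariate (-0.16), without day 7 replicate 1 (-0.03) and without day 7 replicate 3 (-0.01), with up to 0.18 without others. Over all genes, calls at day 1 were 1817 higher and 1993 lower, and 256 and 146 without both libraries with lung markers; at day 7 they were 2127 and 2341, and 1078 and 1047. For day 7 against day 1 they were 366 and 289, and 34 and 26. Leaving out single libraries gave 968 to 1957 higher and 790 to 2299 lower at day 1, 1124 to 2276 and 1042 to 2618 at day 7, and 75 to 275 and 62 to 244 for day 7 against day 1. The lowest counts came without day 1 replicate 2, sham replicate 2 and day 1 replicate 2, in that order. TPM gave 2445 and 601, 3809 and 527, and 113 and 72; without mitochondrially encoded genes it gave 3583 and 886, 3844 and 1042, and 271 and 255. The endothelial covariate gave 1128 and 1163 at day 7 and 198 and 209 for day 7 against day 1. For the latter, a fit of only the 2 groups compared gave 78 and 88, the replicate block 144 and 93 and array weights 584 and 466. Correlations of deviations from group means ran from -0.37 to 0.27 for same-numbered libraries and from -0.53 to 0.40 for differently numbered ones. Whether replicate numbers pair the libraries was not tested, and so few correlations cannot exclude it. With the replicate block, 2 of the 9 genes were called at day 1, 3 at day 7 and 0 for day 7 against day 1; Vegfb at day 7 had an adjusted p of 0.0598 in limma and Vegfa 0.0129. Depth is unknown, so no counting error could be set beside the low levels of Vegfc, Pgf and Flt4.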
